A study of Mus musculus with 39 samples.

Results

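The c subunit of mitochondrial ATP synthase was followed through the 3 genes that encode it in the mouse, Atp5g1, Atp5g2 and Atp5g3. These are 3 of 24116 gene rows measured by RNA sequencing in brown fat, and all 3 passed the filter for testing, a mean of at least 10 normalised counts over all libraries, as did 13176 genes in all. They were chosen because Atp5g1 was far higher in Cre-labelled than in control libraries at both temperatures while Atp5g2 and Atp5g3 were not. Those differences, and how they change with temperature, are therefore given as descriptions without a test. The temperature differences within each Cre label were not used in the choice and were tested, although they come from the same libraries.

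RNA came from interscapular brown fat of male C57BL/6J mice carrying Bcl6 alleles flanked by recombination sites for Cre (BCL6-floxed). Cre-labelled mice (BCL6-floxed, UCP1Cre) also had Cre driven by the Ucp1 promoter, Ucp1 being the uncoupling protein gene of brown adipocytes, and control mice had the floxed alleles without Cre. The 4 groups of 4 libraries were Cre-labelled at 30 °C, control at 30 °C, Cre-labelled at 22 °C and control at 22 °C, 16 libraries in all. Ages are not in the labels, nor whether each library is a separate animal, and p-values thus measure only the spread between samples. The floxed alleles are common to all 4 groups, and Cre acts only in cells that use the Ucp1 promoter, whereas the RNA comes from the whole tissue. In such bulk samples fewer cells of a type and less RNA per cell cannot be told apart.

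ATP synthase lets protons flow back across the inner mitochondrial membrane and uses that flow to make ATP. Its c subunit is a small hydrophobic protein, copies of which form the ring in the membrane that the protons turn. The 3 genes encode the same mature subunit, but each attaches a different targeting presequence that is cut off during import into the mitochondrion. In brown fat, where UCP1 dissipates the proton gradient as heat, ATP synthase content is low for a tissue so rich in mitochondria, and its amount has been linked to expression of Atp5g1.

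Sums of normalised counts per library ran from 8867615 to 9479495 in the Cre-labelled and from 9387313 to 9975035 in the control libraries at 30 °C. Those at 22 °C spanned 10122739 to 12867466 in the Cre-labelled and 12064137 to 13516936 in the control libraries. The number of genes above 0 was lowest in control 22 °C library 1, at 14311, and next lowest in Cre-labelled 22 °C library 2, at 15226. The targeted gene, Bcl6, was higher in the Cre-labelled libraries, at 3269 to 5159 normalised counts against 1020.1 to 2340.45 in control libraries at 30 °C, and at 2671 to 3927 in Cre-labelled against 764 to 1838 in control libraries at 22 °C. These levels do not check the label, since the sources used here do not give the part of the gene that Cre removes. Ucp1, the defining marker of the tissue, was present in all libraries, from 3761 to 119740 normalised counts, but its level differed between the groups. At 30 °C it was at 3761 to 6829 in Cre-labelled against 13596 to 18219 in control libraries, without overlap. At 22 °C it was at 32697 to 60444 in Cre-labelled against 56684 to 119740 in control libraries, with a lower mean in the Cre-labelled libraries.

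The promoters of Atp5g1 and Atp5g2 are shown because these genes differed most in how they varied between the groups. Both are from RefSeq on GRCm38.p6, the build also named mm10, read 5′ to 3′ on the minus strand, and end at the base before the most upstream annotated start. Capitals mark CCAAT, or ATTGG on the other strand, in the 187 bases at chr11:96075695-96075881 for Atp5g1, and the element CGCATGCG, the core of the site bound by NRF1, in the 250 bases at chr15:102671048-102671297 for Atp5g2.
Atp5g1: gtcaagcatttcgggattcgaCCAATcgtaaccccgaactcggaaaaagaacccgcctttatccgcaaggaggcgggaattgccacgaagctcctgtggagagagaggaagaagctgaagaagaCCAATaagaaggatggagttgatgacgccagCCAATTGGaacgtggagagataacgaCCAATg
Atp5g2: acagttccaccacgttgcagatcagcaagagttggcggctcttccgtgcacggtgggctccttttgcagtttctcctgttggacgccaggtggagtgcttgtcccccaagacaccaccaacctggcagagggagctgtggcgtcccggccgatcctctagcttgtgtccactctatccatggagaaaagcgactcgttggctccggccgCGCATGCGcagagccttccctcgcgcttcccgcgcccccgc

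The Atp5g1 window of the promoter table, which runs on into the gene, held CCAAT 5 times when both strands were counted, with 1 overlapping pair, CCAATTGG. Of the 32851 windows in that collection, 37.4% held CCAAT at least once and 0.271% held it at least 5 times. The Atp5g2 window held no CCAAT, and that of Atp5g3 held 1, but the Atp5g3 window lies within the gene, downstream of another annotated start, and is not printed. CGCATGCG occurred once in the window of Atp5g2 and in 1.87% of all windows, and was not in those of Atp5g1 and Atp5g3. TCAAGGTCA, the form bound by oestrogen-related receptors, occurred once in the window of Atp5g3 and in 0.423% of all windows. CACGTG occurred once in the windows of Atp5g1 and Atp5g3 and in 7.15% of all windows. TTCCTNGAA, a core of the sequence that BCL6 binds, was in none of the 3 windows and in 1.59% of all. The 2 BCL6 binding peaks nearest Atp5g1, given below, lie outside its window, and the sequence under them was not searched. All motifs were searched on both strands and were chosen with these promoters in view, so the matches only describe the letters present.

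Atp5g1 lies on chromosome 11 at 96072793 to 96075694 and has 3 RefSeq transcripts. Its normalised counts at 30 °C were 695, 944, 1070.1 and 765 in the Cre-labelled libraries, against 134, 144, 148 and 117 in the control libraries. At 22 °C they were 3177, 3765, 1677 and 2408 in the Cre-labelled libraries, against 160.3, 70.8, 86.1 and 62.8 in the control libraries. Every Cre-labelled library lay above every control library at the same temperature, and the lowest Cre-labelled value was 4.69 times the highest control value at 30 °C and 10.5 times at 22 °C.

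Mean Atp5g1 was 869 ± 171 in Cre-labelled and 136 ± 14.1 in control libraries at 30 °C, a ratio of 6.40 (SD, n = 4 each). At 22 °C it was 2757 ± 909 in Cre-labelled and 95.0 ± 44.6 in control libraries, a ratio of 29.0 (SD, n = 4 each). On the scale of log2(value + 1), which understates changes of low values, the differences were 2.65 (SE 0.26) at 30 °C and 4.88 (SE 0.26) at 22 °C. Here and below the SE rests on a spread shared by all 4 groups, so it does not follow the SDs of the groups compared. Ordered from the highest difference, Atp5g1 was number 29 of 13176 genes at 30 °C and number 3 at 22 °C. Without the 2 libraries with the fewest genes above 0, the difference at 22 °C was 4.99. Genes whose Cre-labelled and control libraries did not overlap made up 22.9% of all genes tested at 30 °C and 12.4% at 22 °C, and genes past an adjusted p of 0.05 in limma 12.5 and 10.2%.

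Atp5g2 lies on chromosome 15 at 102662868 to 102671047 and has 1 RefSeq transcript. Its normalised counts at 30 °C were 1959, 1945, 1995 and 1899.7 in the Cre-labelled libraries, against 2569.6, 2378, 2596 and 2411 in the control libraries. At 22 °C they were 2994, 4486, 2582 and 2697 in the Cre-labelled libraries, against 5321, 3295, 3413 and 3226 in the control libraries. The Cre-labelled libraries were all below the control libraries at 30 °C, and the groups overlapped at 22 °C. Means were 1949.7 ± 39.5 in Cre-labelled and 2489 ± 109.9 in control libraries at 30 °C, and 3189 ± 882 in Cre-labelled and 3814 ± 1008 in control libraries at 22 °C (SD, n = 4 each). The ratios were 0.783 at 30 °C and 0.836 at 22 °C, and the log2 differences -0.35 (SE 0.17) at 30 °C and -0.26 (SE 0.17) at 22 °C.

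Atp5g3 lies on chromosome 2 at 73908447 to 73912464 and has 5 RefSeq transcripts. Its normalised counts at 30 °C were 2093, 1984, 2011 and 1724 in the Cre-labelled libraries, against 2309.9, 2169, 2477 and 1868 in the control libraries. At 22 °C they were 3181, 3921, 3208 and 3007 in the Cre-labelled libraries, against 5059, 3468, 3307 and 3285 in the control libraries. The groups overlapped at both temperatures. Means were 1953 ± 159 in Cre-labelled and 2206 ± 258 in control libraries at 30 °C, and 3329 ± 404 in Cre-labelled and 3779.8 ± 857 in control libraries at 22 °C (SD, n = 4 each). The log2 difference was -0.17 (SE 0.14) at both temperatures, with ratios of 0.885 at 30 °C and 0.881 at 22 °C.

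**Figure D1:**
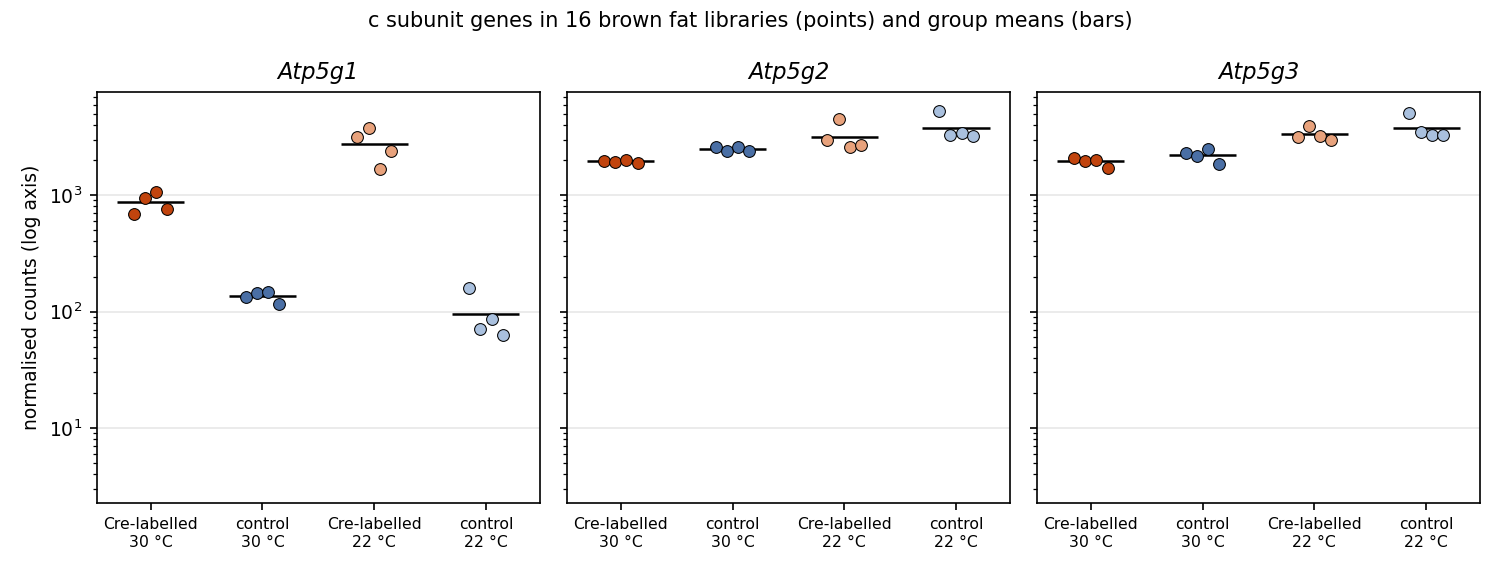
Normalised counts of Atp5g1, Atp5g2 and Atp5g3 on a log axis, with 1 point per library and a bar at the mean of each group of 4. Atp5g1 points of the Cre-labelled libraries, from 695 to 3765, lie above all control points, from 62.8 to 160.3, whereas the points of Atp5g2 and Atp5g3 lie between 1724 and 5321 in all groups.

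Ordered by mean, Atp5g1 was highest in Cre-labelled libraries at 22 °C, then in Cre-labelled libraries at 30 °C, then in controls at 30 °C and lowest in controls at 22 °C, and only the 2 control groups overlapped. Atp5g2 ran in another order, highest in controls at 22 °C, then in Cre-labelled libraries at 22 °C, controls at 30 °C and Cre-labelled libraries at 30 °C. The Cre-labelled 22 °C libraries overlapped with both neighbours in that order, since their lowest value, 2582, lay below the highest control value at 30 °C, 2596. Atp5g3 had the same order of means as Atp5g2, and its groups separated only between the temperatures. The Cre-labelled minus control difference at 30 °C less that at 22 °C was -2.23 on the log2 scale for Atp5g1, -0.09 for Atp5g2 and -0.01 for Atp5g3.

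Because the 3 genes encode the same mature subunit, their normalised counts were also summed in each library. Counts are not corrected for transcript length, so the sum and the shares below compare libraries and do not rank the genes. The transcripts are alike where they encode the mature subunit, and how the authors' counting split such reads among the genes was not tested. The sum averaged 4772 ± 289 in Cre-labelled and 4831 ± 363 in control libraries at 30 °C (SD, n = 4 each), with overlapping ranges of 4389.65 to 5077 in Cre-labelled and 4396 to 5222 in control libraries. At 22 °C it averaged 9275 ± 2083 in Cre-labelled and 7689 ± 1905 in control libraries (SD, n = 4 each), again overlapping, at 7467 to 12171 in Cre-labelled and 6574 to 10540.5 in control libraries. The mean sum in Cre-labelled libraries was 0.988 times that in controls at 30 °C and 1.21 times at 22 °C. Without the 2 libraries with the fewest genes above 0, the means at 22 °C were 8310 in Cre-labelled and 6738 in control libraries.

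The make-up of the sum differed between the labels. Atp5g1 gave 14.6, 19.4, 21.1 and 17.4% of the summed counts in Cre-labelled libraries at 30 °C, against 2.67, 3.08, 2.84 and 2.65% in controls. At 22 °C it gave 34.0, 30.9, 22.5 and 29.7% in Cre-labelled libraries, against 1.52, 1.04, 1.27 and 0.955% in controls. The mean share was 18.1% in Cre-labelled and 2.81% in control libraries at 30 °C, and 29.3% in Cre-labelled and 1.19% in control libraries at 22 °C. The share from Atp5g2 was 40.9% in Cre-labelled and 51.6% in control libraries at 30 °C, and 34.2% in Cre-labelled and 49.5% in control libraries at 22 °C, without overlap at either temperature. In normalised counts at 30 °C, the Cre-labelled minus control difference of means was 733 for Atp5g1, -539 for Atp5g2 and -253 for Atp5g3. At 22 °C it was 2662 for Atp5g1, -624 for Atp5g2 and -451 for Atp5g3.

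**Figure D2:**
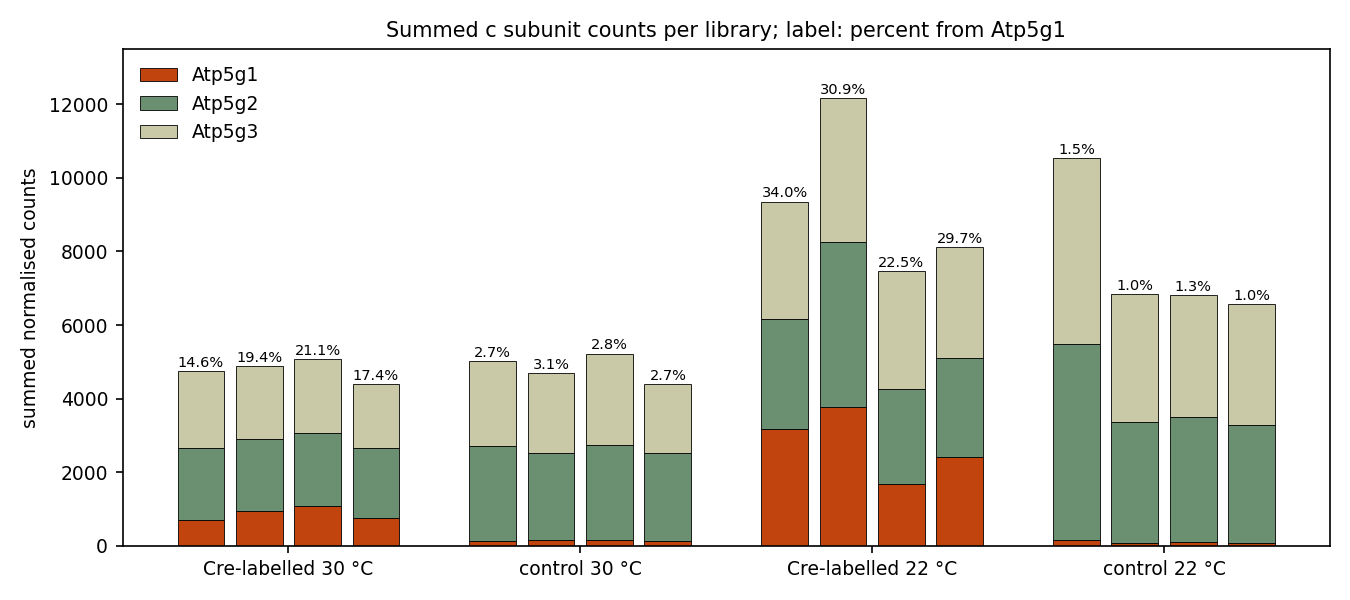
Stacked bars of normalised counts of Atp5g1, Atp5g2 and Atp5g3 in each of the 16 libraries, with the percent from Atp5g1 above each bar. At 30 °C the bars of Cre-labelled and control libraries have similar heights, while the Atp5g1 segment is 14.6 to 21.1% of the bar in the Cre-labelled libraries and 2.65 to 3.08% in the controls.

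The other subunits of the enzyme were summed in the same way. The summed counts of 14 other ATP synthase subunit genes averaged 128474 ± 7767 in Cre-labelled and 159181 ± 4838 in control libraries at 30 °C, without overlap, and 216325 ± 52253 in Cre-labelled and 266769 ± 54833 in control libraries at 22 °C, with overlap (SD, n = 4 each). For every 100 counts of these genes, the c subunit genes gave 3.79, 3.51, 3.92 and 3.64 counts in Cre-labelled libraries at 30 °C, against 3.09, 2.90, 3.44 and 2.73 in controls. At 22 °C they gave 4.61, 4.16, 4.28 and 4.15 counts in Cre-labelled libraries, against 3.03, 2.82, 2.76 and 2.86 in controls. The Cre-labelled libraries were above the controls at both temperatures, with mean ratios of 1.22 at 30 °C and 1.50 at 22 °C. Since Atp5g1 was chosen on this contrast, these figures carry no test.

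None of the 14 other subunit genes passed the adjusted p threshold of 0.05 between Cre labels in the fit with limma, at either temperature. The share of all tested genes that passed lower was 6.85% at 30 °C and 4.69% at 22 °C, and higher 5.65 and 5.51%. At an unadjusted p under 0.05, 3 of the 14 genes were lower at 30 °C and 4 at 22 °C, and 0 were higher. Their median log2 difference was -0.12 at 30 °C and -0.10 at 22 °C, against 0.01 and -0.00 over all genes tested. Atp5a1 and Atp5b, subunits of the catalytic head, differed by -0.42 (SE 0.17, limma adjusted p = 0.119) and -0.40 (SE 0.18, limma adjusted p = 0.168) at 30 °C. The central stalk subunit Atp5c1 differed by -0.44 (SE 0.17, limma adjusted p = 0.111) there. At 30 °C, 3 of the 14 passed lower when only the groups compared were fitted, and 4 passed without the 2 libraries with the fewest genes above 0.

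Among 6 genes for assembly and inhibition of the enzyme, Tmem70, which helps the c ring form, passed the test as lower in Cre-labelled libraries at 30 °C. It averaged 778 ± 56.8 in Cre-labelled and 1049 ± 39.8 in control libraries, which is -0.43 on the log2 scale (SE 0.13, limma adjusted p = 0.0310). At 22 °C Tmem70 differed by -0.48 (SE 0.13, limma adjusted p = 0.0230) and Atpaf2, the assembly factor of the alpha subunit, by -0.45 (SE 0.10, limma adjusted p = 0.00862). At each temperature 0 of the 6 were higher, and at an unadjusted p under 0.05 2 were lower and 0 higher. The list's median was -0.20 at 30 °C and -0.27 at 22 °C, against 0.01 and -0.00 over all genes tested. Of all genes tested, 6.85% passed lower at 30 °C and 4.69% at 22 °C. The Tmem70 call at 30 °C, the only one of the list there, was lost in 6 of 16 fits that left out 1 library, namely Cre-labelled library 1, 3 or 4 or control library 1, 2 or 4 of that temperature, and limma adjusted p ran from 0.00178 to 0.0913 over the alternatives. Without Cre-labelled 22 °C library 2 or control 22 °C library 1 the count at 30 °C was 2, and it was 3 when only the groups compared were fitted. At 22 °C the Tmem70 call was lost without Cre-labelled library 1, 3 or 4 or control library 3 of that temperature, and when only the groups compared were fitted neither gene passed (limma adjusted p up to 0.126 for Tmem70 and 0.0808 for Atpaf2).

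The presequences are what distinguishes the 3 precursors, so 21 genes for presequence import and cleavage were examined. At 30 °C 2 were lower in Cre-labelled libraries and 0 higher by limma, and at an unadjusted p under 0.05 6 were lower and 0 higher. The share of all tested genes that passed lower was 6.85% at 30 °C and 4.69% at 22 °C. Mipep, an intermediate peptidase of the matrix, averaged 729 ± 54.8 in Cre-labelled and 1179 ± 148 in control libraries, which is -0.69 on the log2 scale (SE 0.14, limma adjusted p = 0.00399). Pmpcb, the catalytic subunit of the processing peptidase, differed by -0.53 (SE 0.13, limma adjusted p = 0.0108). At 22 °C 3 were lower and 0 higher, or 7 lower and 0 higher at an unadjusted p under 0.05. The 3 were the import motor chaperone Hspa9 at -0.63 (SE 0.12, limma adjusted p = 0.00388), Pmpcb at -0.48 (SE 0.13, limma adjusted p = 0.0227) and the outer membrane channel Tomm40 at -0.43 (SE 0.13, limma adjusted p = 0.0386). The median over the 21 genes was -0.22 at 30 °C and -0.28 at 22 °C, against 0.01 and -0.00 over all genes tested. The 2 calls at 30 °C held in all 27 alternatives, and the count there was 5 when only the groups compared were fitted. The count at 22 °C moved with single libraries. It was 1 without Cre-labelled 22 °C library 1 or 3 or control 22 °C library 3, 11 without Cre-labelled 22 °C library 2, 9 without the 2 libraries with the fewest genes above 0, 1 under quantile normalisation and 0 when only the groups compared were fitted. Of the 16 fits without 1 library, Hspa9 passed in all, Pmpcb failed in 3 and Tomm40 in 8.

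Housing at 30 °C rather than 22 °C was tested within each label. In Cre-labelled libraries all 3 c subunit genes were lower at 30 °C, and the values at the 2 temperatures did not overlap for any of them. Atp5g1 differed by -1.62 (SE 0.26, limma adjusted p = 2.58e-04), a level 3.17 times as high at 22 °C. Atp5g2 differed by -0.67 (SE 0.17, limma adjusted p = 0.00516) and Atp5g3 by -0.77 (SE 0.14, limma adjusted p = 5.82e-04). The two-sided exact permutation p was 0.0286 for each, the smallest that 4 against 4 libraries allow. Of all genes tested 32.7% passed the threshold, 17.7% lower and 15% higher at 30 °C, and 34.5% did not overlap, so a gene lower at 30 °C was common here.

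In control libraries Atp5g2 and Atp5g3 were lower at 30 °C by similar amounts, and Atp5g1 did not pass the test. Atp5g2 differed by -0.58 (SE 0.17, limma adjusted p = 0.00923) and Atp5g3 by -0.76 (SE 0.14, limma adjusted p = 4.00e-04), each with an exact permutation p of 0.0286 and no overlap. Atp5g1 had a difference of 0.60 with a 95% confidence interval of 0.05 to 1.16, a limma adjusted p of 0.0700 and an exact permutation p of 0.143. Control 22 °C library 1, at 160.3, was above all 4 control libraries at 30 °C, and without it the Atp5g1 difference was 0.89 (limma adjusted p = 0.00485). Of all genes tested 45.5% passed in this comparison, 22.7% lower and 22.9% higher, and 41.2% did not overlap. The Atp5g2 call in controls was lost under quantile normalisation, at -0.18 (limma adjusted p = 0.230), and with a skeletal muscle score as covariate, at -0.45 (limma adjusted p = 0.0657).

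The sum of the 3 genes averaged 4772 at 30 °C and 9275 at 22 °C in Cre-labelled libraries, and 4831 at 30 °C and 7689 at 22 °C in controls, without overlap within either label. The Atp5g1 share differed between the temperatures in opposite directions in the 2 labels. In Cre-labelled libraries it was 18.1% at 30 °C against 29.3% at 22 °C, and in controls 2.81% at 30 °C against 1.19% at 22 °C, again without overlap.

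Of the 14 other subunit genes, all 14 were lower at 30 °C in Cre-labelled libraries and 12 in controls. Their median was -0.73 in Cre-labelled and -0.71 in control libraries, against 0.02 and 0.04 over all genes tested. The share of all tested genes that passed lower was 17.7% in Cre-labelled and 22.7% in control libraries. Under quantile normalisation 5 were lower in Cre-labelled libraries, and 4 were lower and 1 higher in controls. Leaving out Cre-labelled 22 °C library 2 left 8 lower in Cre-labelled libraries. Atp5d, the delta subunit of the central stalk, differed by -1.07 (SE 0.18, limma adjusted p = 3.84e-04) in Cre-labelled and -1.03 (SE 0.18, limma adjusted p = 3.11e-04) in control libraries. Atp5e, the epsilon subunit, differed by -1.05 (SE 0.21, limma adjusted p = 0.00142) in Cre-labelled and -1.08 (SE 0.21, limma adjusted p = 7.22e-04) in control libraries. The 2 genes that did not pass in controls were Atp5k at -0.59 (limma adjusted p = 0.0794) and Usmg5 at -0.53 (limma adjusted p = 0.0608), both small membrane subunits.

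Of the assembly and inhibition genes 4 of 6 were lower at 30 °C in Cre-labelled and 5 of 6 in control libraries, led by Atpaf2 at -1.03 (SE 0.10, limma adjusted p = 4.43e-06) in Cre-labelled and -1.19 (SE 0.10, limma adjusted p = 4.61e-07) in control libraries. Of the import and cleavage genes 18 of 21 were lower in each label, and over the alternatives 16 to 20 in Cre-labelled and 17 to 19 in control libraries. Beside both lists, 17.7% of all genes tested passed lower in Cre-labelled and 22.7% in control libraries. Grpel1, the nucleotide exchange factor of Hspa9, differed by -1.08 (SE 0.16, limma adjusted p = 1.30e-04) in Cre-labelled and -1.29 (SE 0.16, limma adjusted p = 1.58e-05) in control libraries. Timm50, the receptor of the inner membrane channel, differed by -1.05 (SE 0.12, limma adjusted p = 1.38e-05) in Cre-labelled and -0.84 (SE 0.12, limma adjusted p = 3.97e-05) in control libraries.

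**Figure D3:**
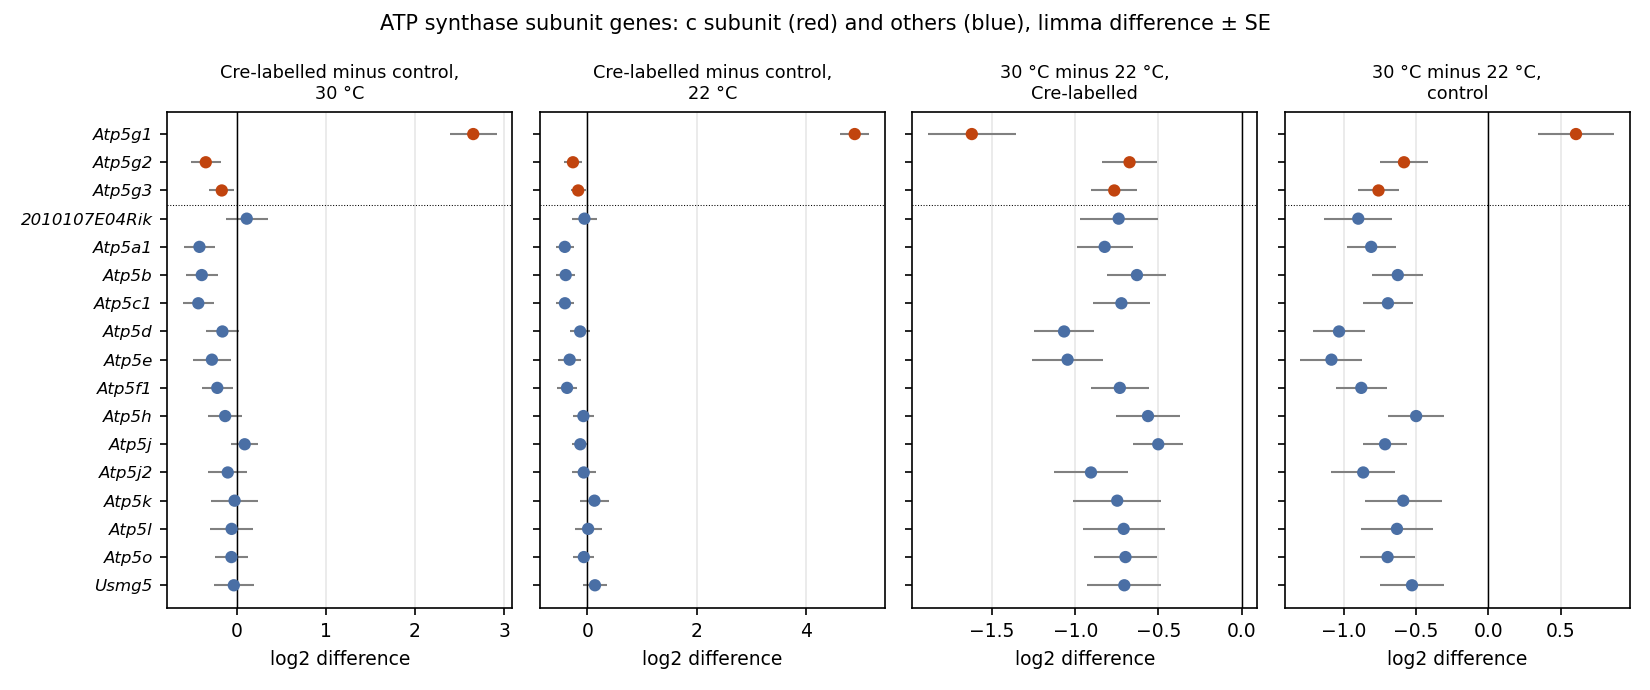
Log2 differences from limma with their standard errors for the 3 c subunit genes (red) and 14 other ATP synthase subunit genes (blue) in the 4 comparisons, each panel with its own axis. Atp5g1 stands at 2.65 and 4.88 between Cre labels while the 14 others lie between -0.44 and 0.14, and it is the only one of the 17 genes above 0 in the comparison of temperatures in controls, at 0.60, although under quantile normalisation 1 other subunit gene was higher there.

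Markers of other cell types moved with the same comparisons. Between Cre labels, 5.65% of all genes tested passed higher and 6.85% lower at 30 °C, and 5.51 and 4.69% at 22 °C. Between temperatures, 15% passed higher at 30 °C and 17.7% lower in Cre-labelled libraries, and 22.9 and 22.7% in controls. Of 10 macrophage markers 9 were higher in Cre-labelled libraries at 30 °C and 5 at 22 °C, and their summed counts were 5610 to 13537 in Cre-labelled against 3139 to 3984 in control libraries at 30 °C and 2011 to 2860 in Cre-labelled against 1121 to 1913 in control libraries at 22 °C. Of 8 endothelial markers 4 were higher at each temperature, with sums of 25053 to 30861 in Cre-labelled against 20056 to 25097 in control libraries at 30 °C and 15799 to 27929 in Cre-labelled against 13113 to 19897 in control libraries at 22 °C. Between temperatures, 9 macrophage markers were higher at 30 °C in each label, as were 4 endothelial markers in Cre-labelled and 5 in control libraries. Of 12 skeletal muscle markers 0 passed between the labels in limma, also at an unadjusted p under 0.05, but their sum varied widely, from 57.5 to 28946 in Cre-labelled against 9009 to 16724 in control libraries at 30 °C and from 168 to 33560 in Cre-labelled against 151 to 4043 in control libraries at 22 °C, with 4 of the 12 at 0 in some Cre-labelled library at 30 °C. Of the skeletal muscle markers 4 were higher at 30 °C in controls by limma, and 10 at an unadjusted p under 0.05. All 12 had higher values at 30 °C there, without overlap, with a median log2 difference of 4.08. In Cre-labelled libraries 0 passed between temperatures, also at an unadjusted p under 0.05, with a median of 0.25. Of 11 brown adipocyte markers 3 were lower in Cre-labelled libraries at 30 °C and 2 at 22 °C, and 0 were higher. At an unadjusted p under 0.05, 5 were lower and 2 higher at 30 °C, and 3 lower and 0 higher at 22 °C. Their log2 differences between labels ran from -1.68 to 1.36 at 30 °C and from -3.90 to 0.26 at 22 °C. Between temperatures, 6 were lower at 30 °C in Cre-labelled and 8 in control libraries. Their sums were 111555 to 141719 in Cre-labelled against 114350 to 137341 in control libraries at 30 °C. At 22 °C the sums were 192389 to 302480 in Cre-labelled against 236078 to 362040 in control libraries. No macrophage, endothelial or brown adipocyte marker was at 0 in any library. With a skeletal muscle score as covariate, the Atp5g1 difference between Cre-labelled and control libraries was 2.68 at 30 °C and 4.85 at 22 °C, close to the values without it. The part of the macrophage, endothelial and brown adipocyte markers in the results was not tested.

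The genes whose pattern over the 16 libraries was most like that of each member were found among genes with a mean of at least 100, by the root mean square difference between centred log2 values. For Atp5g1 these were Gpc1, a cell surface heparan sulphate proteoglycan, at 0.828, then Lrrn4 at 0.930, Socs2, an inhibitor of cytokine signalling, at 0.998, the imprinted zinc finger gene Peg3 at 1.06 and the extracellular protease gene Adamts15 at 1.07. Gpc1 averaged 374 in Cre-labelled and 109 in control libraries at 30 °C, and 690 in Cre-labelled and 80.1 in control libraries at 22 °C. The others also had higher means in Cre-labelled libraries at each temperature, but did not follow Atp5g1 between temperatures in both labels. In controls Socs2 averaged 82.2 at 30 °C and 227 at 22 °C, and Peg3 484 at 30 °C and 847 at 22 °C. In Cre-labelled libraries Lrrn4 averaged 325 at 30 °C and 330 at 22 °C, and Adamts15 303 at 30 °C and 221 at 22 °C. For Atp5g2 the nearest were the glutaredoxin gene Glrx3 at 0.0776, the mitochondrial ribosomal protein gene Mrpl17 at 0.0802, Mettl26 at 0.0870, Higd2a at 0.0945 and the succinate dehydrogenase subunit Sdhb at 0.0968. For Atp5g3 they were the complex I subunit Ndufa12 at 0.0954, Apopt1 at 0.0969, the superoxide dismutase Sod1 at 0.101, the mitochondrial ribosomal protein gene Mrpl51 at 0.104 and Bloc1s1 at 0.105. Atp5g2 and Atp5g3 lay 0.155 apart, and Atp5g1 lay 2.12 from Atp5g2 and 2.07 from Atp5g3.

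The position of the genes was compared with a list of 3022 BCL6 binding peaks from brown fat of Cre-negative mice at 30 °C, which the authors deposited as 1 list without replicates. The scores are the authors' and only rank the peaks. Atp5g1 was the nearest gene of 2 peaks. One lay at chr11:96076816-96076996, 1212 bp upstream of an annotated start and 1122 bp outside the gene, within an L1M5 element. Its score was 48.6, number 19 in the list. The other lay at chr11:96070429-96070609, 5112 bp downstream of another annotated start and 2184 bp beyond the 3′ end, with a score of 47.9, number 20. The median score was 5.18, with a range of 4.11 to 170. Of 2529 genes with a peak 391, or 15.5%, had more than 1, and Atp5g1 was the only gene with more than 1 among the 20 peaks with a score of 47.9 or above. That cutoff is the lower Atp5g1 score itself, so this only describes the list. The count for Atp5g1 also depends on the peak at 5112 bp, whose centre is 5155 bp from the start of the next gene, Ube2z.

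Atp5g2 and Atp5g3 were the nearest gene of no peak. The peak nearest the start of Atp5g2 was 200148 bp away with a score of 5.36, and that nearest Atp5g3 was 249553 bp away with a score of 4.11. Of the 14 other subunit genes 3 had a peak, Atp5h, Atp5k and Atp5l, the highest with a score of 6.61. Of the 5 genes most like Atp5g1 in pattern 3 had a peak, Socs2 with the score of 122.6 that was number 2 in the list, Lrrn4 with 29.5 and Adamts15 with 9.30, against 14.2% of all genes tested. These peaks lay at -72 bp from an annotated start for Socs2, 2281 bp for Lrrn4 and 163355 bp for Adamts15. The 14.2% covers genes with a mean of at least 10, whereas the similar genes had a mean of at least 100. Of the 5 most like Atp5g2 none had a peak, and of the 5 most like Atp5g3 1 had a peak, Apopt1 with 5.36. No test was made of these counts, because the genes were chosen by a pattern that includes the Cre label.

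**Figure D4:**
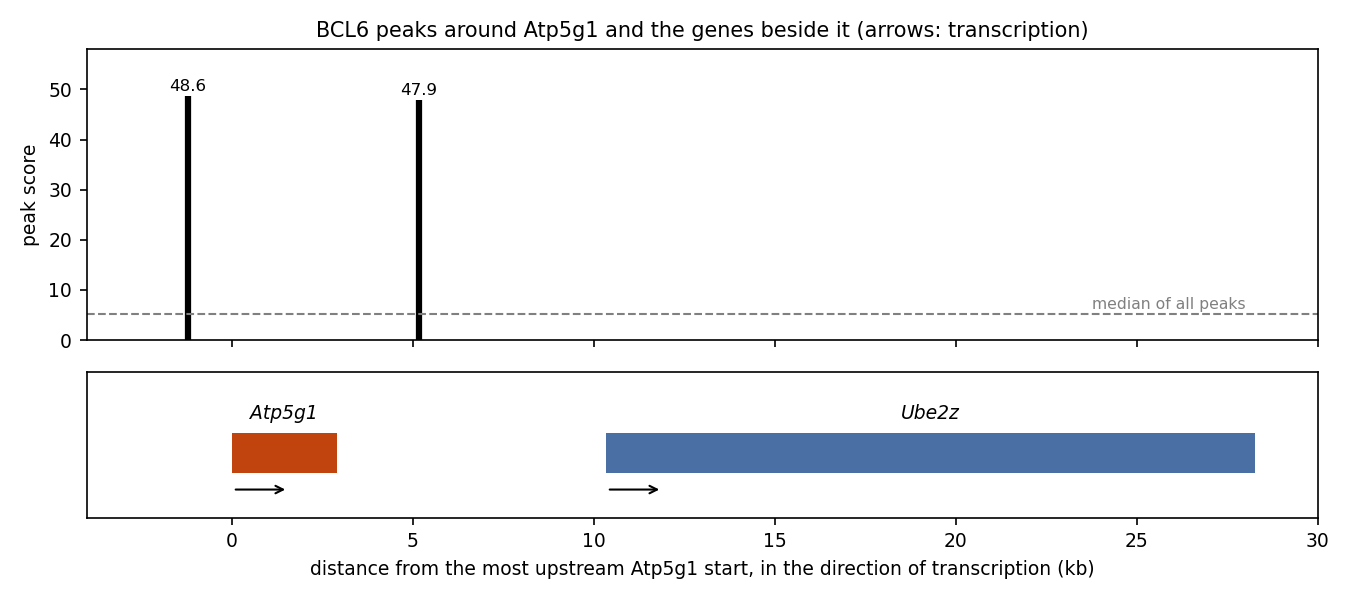
Scores of the BCL6 peaks (bars, upper panel) and genes (boxes, lower panel) by distance in kb from the most upstream annotated start of Atp5g1, in its direction of transcription. The peaks, with scores of 48.6 and 47.9, lie on the 2 sides of Atp5g1, and that on the 3′ side lies between Atp5g1 and Ube2z.

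The 3′ side peak also lies upstream of Ube2z, which encodes a ubiquitin-conjugating enzyme and is transcribed from the same strand as Atp5g1. Ube2z runs from 96047431 to 96065364 on chromosome 11, so that 7429 bp separate the genes, and the centre of the peak is 5155 bp from the start of Ube2z. The normalised counts of Ube2z at 30 °C were 945, 979, 1059 and 1094 in the Cre-labelled libraries, against 571, 701, 561 and 498 in the control libraries. At 22 °C they were 1183, 1427, 1049.8 and 1071 in the Cre-labelled libraries, against 551, 489.6, 607 and 523 in the control libraries. Cre-labelled and control libraries were separated at both temperatures. Means were 1019 ± 69.2 in Cre-labelled and 583 ± 85.4 in control libraries at 30 °C, which is 0.81 on the log2 scale (SE 0.12, limma adjusted p = 2.91e-04). At 22 °C they were 1183 ± 173 in Cre-labelled and 543 ± 49.7 in control libraries, which is 1.12 on the log2 scale (SE 0.12, limma adjusted p = 1.48e-05). Between 30 and 22 °C Ube2z differed by -0.21 in Cre-labelled libraries (limma adjusted p = 0.203) and by 0.10 in controls (limma adjusted p = 0.534).

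**Figure D5:**
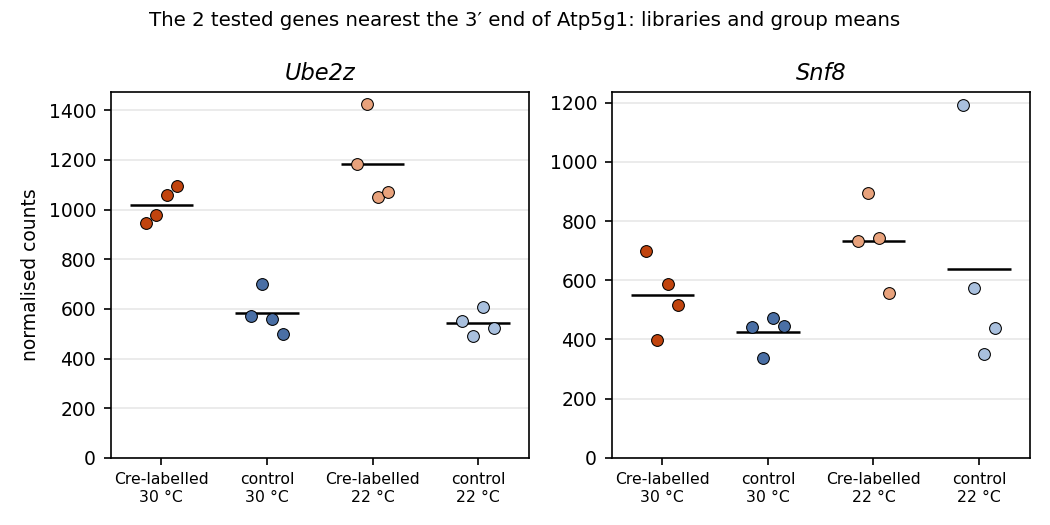
Normalised counts of Ube2z and Snf8, the 2 tested genes nearest the 3′ end of Atp5g1, with 1 point per library and a bar at each group mean. Ube2z is at 945 to 1427 in the Cre-labelled libraries and at 489.6 to 701 in the controls, while the Snf8 groups overlap.

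Snf8, the next gene beyond Ube2z and a subunit of an endosomal sorting complex, differed by 0.36 (limma adjusted p = 0.466) at 30 °C and 0.34 (limma adjusted p = 0.488) at 22 °C. Of the 10 tested genes nearest Atp5g1, 5 on each side, Ube2z was the only one higher at 30 °C, and Ube2z and Hoxb3, at 0.85 (limma adjusted p = 0.0420), were higher at 22 °C. The gene 4833417C18Rik was lower at 30 °C, at -0.92 (limma adjusted p = 0.0497). Without adjustment, at a limma p under 0.05, 1 of the 10 was higher and 1 lower at 30 °C, and 3 were higher and 0 lower at 22 °C. Of the 16 fits that left out 1 library, the Hoxb3 call was lost in 11, the 4833417C18Rik call in 14 and the Ube2z calls in 0. Of all genes tested, 5.65% passed higher and 6.85% lower at 30 °C, and 5.51 and 4.69% at 22 °C. Around Atp5g2 2 of 10 genes were lower at 30 °C and 3 at 22 °C, all of them Hoxc genes with differences of -0.65 to -1.23. At an unadjusted p under 0.05, 4 were lower at each temperature, while 0 were higher with or without adjustment. Around Atp5g3 0 of 10 passed in limma at 30 °C, with 1 higher and 1 lower at an unadjusted p under 0.05. At 22 °C 4 were higher, Wipf1 at 0.61, Hoxd9 at 1.83, Hoxd8 at 0.44 and Hoxd4 at 0.91, and at an unadjusted p under 0.05 5 were higher and 1 lower. Among the neighbours of Atp5g2 and Atp5g3, Hoxc5, Hoxc4 and Hoxd9 at 22 °C passed in all fits without 1 library, while each of the other calls was lost in 1 to 7 of the 16. Calcoco2, the gene next to Atp5g1 on its 5′ side, had a mean of 3.41 over the 16 libraries and was not tested.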

How the data were processed

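Per the labels' protocols, polyA RNA was made into stranded libraries and sequenced as single reads. The table the authors deposited holds a signal for each gene in each library, called normalised counts here. Per the submitters' processing notes, kallisto, DESeq2 and mm10 were used, in versions that the sources used here do not give. No whole-read step was found in them (9.947 to 25.175% of values were within 0.02 of a whole number at the best step), so the raw depth cannot be stated. Scaling libraries to a common size hides a change in total RNA. How kallisto split reads among the c subunit genes, which share coding sequence, and any near-identical copies was not tested. Of the 16 sample columns 0 were unused, 0 library pairs were identical, 26 date-like symbols were restored and 14 rows had no symbol.

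Tests ran on log2(value + 1) with limma 3.58.1 in R 4.3.3, with 1 mean per group over all 16 libraries and a trend (residual degrees of freedom 12, prior 4.83). The Benjamini-Hochberg adjustment ran over 13176 genes with a mean of at least 10, at a threshold of 0.05, and called genes are those past it. Exact permutation tests were two-sided. The procedure was tested on simulated data with known answers. A permutation test of the sum and of the Atp5g1 share by temperature had been planned and is left out, because a score over chosen genes gets no p.

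The members and gene lists were chosen with earlier results of these data known. Up to 4 list genes with the smallest adjusted p were eligible for naming in each comparison, and others named (Atp5b, Atp5c1 and Atp5a1 between Cre labels, Atp5k, Usmg5, Snf8 and Calcoco2) were chosen after their values were seen.

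The BCL6 peak list was annotated with HOMER on mm10, per the file headers, from reads aligned with Bowtie2, per the submitters' processing notes. The deposited peak score is the authors' value, on a scale that the sources used here do not give, and a deposited fraction column from HOMER was not used in a result. Gene positions and promoters are from RefSeq on GRCm38.p6, where 13163 of 13176 tested genes matched. Other ChIP samples were not analysed here.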

Additional observations from a re-analysis of the deposited data

Results flagged for a closer look

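In control libraries at 22 °C, library 1 stood far above the other 3 in several measures. It had 5321 normalised counts of Atp5g2, against 3413 in the next library and 3226 in the lowest. It had 5059 of Atp5g3, against 3468 in the next library and 3285 in the lowest. Its sum over the c subunit genes was 10540.5, against 6834 in the next, and its sum over the 14 other ATP synthase subunit genes was 348333, against 246631 in the next. The same library had the fewest genes above 0, at 14311. Its ratio of c subunit counts to 100 counts of the other subunits was 3.03, beside 2.76 to 2.86 in the other 3 libraries.

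At 30 °C, control library 3 had the lowest sum over the 14 other subunit genes, 151957, against 160988 in the next lowest library. Of 28 groups of 4 values examined in this way 5 had such a value, most of them in control 22 °C library 1. Chance gives about 1 in 20 for a single group. The groups share genes and libraries, so the 5 cannot be compared with that rate.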

How the results depend on the processing

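Each of 12 differences of the members was recomputed under 27 alternatives, which gave 324 values, and 317 kept both their direction and their call or, where no test was made, stayed within the spread between replicates. Many alternatives could not move an untested difference between Cre labels. They changed only the filter or the SE, or left out a library of the other temperature. The 317 is therefore a tally and does not measure how firm the differences are. The Atp5g1 difference between Cre labels ran from 2.55 to 2.79 at 30 °C and from 4.64 to 5.16 at 22 °C. Under quantile normalisation the Atp5g3 difference at 22 °C turned to 0.00274, the Atp5g2 temperature difference in controls lost its call (-0.185, limma adjusted p = 0.230), and the other subunit genes numbered 1 lower between Cre labels at 30 °C, 5 lower at 30 °C in Cre-labelled libraries, and 1 higher and 4 lower in controls. That setting also gave mean c subunit sums at 30 °C of 5211 in Cre-labelled and 5259.79 in control libraries, and mean Atp5g1 shares in controls of 2.45% at 30 °C and 1.61% at 22 °C. With the skeletal muscle score as covariate Atp5g2 differed by -0.41 between Cre labels at 30 °C and by -0.449 between temperatures in controls (limma adjusted p = 0.0657). Fitting only the groups compared gave 3 other subunit genes lower between Cre labels at 30 °C. Without the 2 libraries with the fewest genes above 0, 4 were lower at 30 °C and 3 at 22 °C, and the Atp5g1 difference in controls was 0.887 (limma adjusted p = 0.00192). The cause of these changes was not tested.

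Leaving out 1 library at a time gave 0 to 1 other subunit genes lower between Cre labels at 30 °C, 0 to 3 at 22 °C, and 8 to 14 lower at 30 °C in Cre-labelled libraries. The values of 1 and 3 came without Cre-labelled 22 °C library 2, and the 1 also without control 22 °C library 1. The Atp5g1 temperature difference in controls ran from 0.44 to 0.89, and it passed the threshold without control 22 °C library 1 (limma adjusted p = 0.00485) and without Cre-labelled 22 °C library 3, which changes only the shared spread (0.60, limma adjusted p = 0.0477). Between Cre labels, also leaving out 1 library at a time, the assembly and inhibition genes numbered 0 to 2 lower at 30 °C and 1 to 3 at 22 °C, and the import and cleavage genes 2 to 3 lower at 30 °C and 1 to 11 at 22 °C. Under the other 11 alternatives these counts were 1 to 3 and 0 to 3 for assembly and inhibition, and 2 to 5 and 0 to 9 for import and cleavage. For Ube2z and the other neighbours the alternatives were added after the data were seen. For Ube2z, they gave 0.74 to 0.91 at 30 °C and 1.02 to 1.17 at 22 °C, with limma adjusted p from 4.86e-05 to 0.00186 and from 5.20e-06 to 0.00129.

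Libraries carry numbers 1 to 4 in each group, and whether the numbers pair them is not known. Deviations of same-numbered libraries correlated at -0.48 to 0.238 over 24 pairs, and those of other-numbered libraries at -0.401 to 0.397 over 72 pairs. The ranges overlap, so they cannot decide whether the libraries are paired. A replicate block cannot change a difference between groups that each hold all the numbers, so Atp5g1 stayed at 2.65 at 30 °C and 4.88 at 22 °C. With the block no call of a member changed. Genes called between Cre labels over the whole table went to 1490, against 1647, at 30 °C and 1161, against 1344, at 22 °C. With 10 tested genes on each side of Atp5g1, 1 was higher and 2 lower at 30 °C and 2 were higher and 1 lower at 22 °C between Cre labels. Counting peaks above the median score, or within 100 kb of the start, left 2 at Atp5g1 and 0 at Atp5g2 and Atp5g3. Division by transcript length was not run, because no transcript lengths were used here.

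The deposited values carry no read counts, so no counting interval can be given for low values such as Atp5g1 in controls. The peak list is 1 library without replicates.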
